A study of Mus musculus with 34 samples.

Results

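Gene expression was compared between 3 left ventricles (LV) collected 24 h after myocardial infarction (MI) and injection of luciferase (Luc) modRNA, and 2 LV from sham-operated mice. These 5 libraries were chosen by their labels, out of 34 in the series and out of the 24 that share their table. All mice were of the outbred CFW strain. The paper's general methods for surgery and injection were taken to hold for these libraries. By them, the left anterior descending coronary artery was ligated permanently for MI. The modRNA was injected next to the infarct, in the border zone, directly after the ligation. The infarct libraries are labelled myocardial infarction, 24 hours, Luc injection (replicates A, C and D), and the sham libraries are labelled sham operation, 4 hours, no injection (replicates 1 and 2). The comparison therefore joins the ligation, the injection of Luc modRNA and a collection at 24 h instead of 4 h, and these cannot be told apart. The names of the columns also take another form in the 24 h libraries than in the sham libraries, so that the time of collection and the form of the name coincide. The labels do not say how the named replicates were kept or pooled, so the p-values measure the spread between libraries. That spread was estimated within the 7 groups of all 24 libraries of the table, not from these 5 libraries alone.

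Ligation stops the blood supply of part of the LV wall. In the following day heart muscle dies by necrosis, damaged cells and RNA set off innate immune signals, neutrophils and then monocytes enter the tissue, and surviving cardiomyocytes turn on genes of the fetal and stretched heart. RNA that a cell reads as foreign is bound by sensors of the RIG-I family, by protein kinase R and by endosomal receptors, which lead to type I interferon and to the interferon-stimulated genes. Synthetic mRNA with modified bases (modRNA) is made to be less visible to these sensors, and Luc modRNA encodes firefly luciferase, a reporter with no known role in the heart.

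Transcripts of heart muscle were abundant in all 5 libraries. The genes named here do not separate LV from atrial muscle, and the genes of atrial muscle are given below. The α-myosin heavy chain gene Myh6, the main motor of the adult mouse ventricle, had 24992, 21302 and 27749 CPM (read counts scaled to the size of the library) in Luc replicates A, C and D, and 10381 and 18078 CPM in the sham libraries. Cardiac actin Actc1 had 10304, 12132 and 14366 CPM against 10449 and 10676 CPM. Of the 10 listed genes of fast skeletal muscle, 7 were under 1 CPM in all 5 libraries and none passed the filter on low values. From the size of the smallest steps between values, the Luc libraries held an estimated 20011732 to 21322521 reads on genes and the sham libraries 19298332 and 19529742, so 1 read was worth between 0.0317 and 0.0392 CPM.

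Of 17406 genes listed, 12555 averaged 1 CPM or more over the 24 libraries and were tested (limma on log2(CPM + 1), Benjamini-Hochberg adjusted p under 0.05). Transcripts of 3172 genes were higher in the Luc 24 h libraries (25.3% of those tested) and 1103 were lower (8.79%). The increases were also the larger: 387 genes rose by at least 2 on the log2 scale (4-fold) and 9 fell by as much. The split between directions depended on the scaling. The median log2 fold change of all genes tested was 0.16 with the deposited scaling. Median-ratio rescaling shifted it by -0.18 and gave 2296 higher and 2044 lower genes, and equal totals shifted it by -0.29 and gave 1838 higher and 2479 lower. Small changes on the log2 scale are to be read against this shift. Without sham replicate 1, which leaves a single sham library whose spread is taken from the other groups, 1345 genes were higher and 337 lower.

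Fold changes also moved with the GC content of the transcript, taken from the longest annotated transcript of each gene. When the 12387 genes with a GC value were ordered by it and cut into 10 equal bins, the median log2 fold change went from -0.20 in the lowest bin to 0.68 in the highest (Spearman's rho over genes 0.41, as a description). Sham replicate 1 stood apart here. Its median log2 difference from the mean of all libraries, highest bin minus lowest bin, was -0.78, while this value was -0.0085 in sham replicate 2 and between 0.37 and 0.71 in the Luc 24 h libraries. Without sham replicate 1 the medians still ranged from -0.042 to 0.45. When a smooth over GC content was removed from each library, 1907 genes were higher and 1587 lower, of which 1761 and 875 had been called in the same direction before. The part of GC content in single results was not tested, and the larger losses of calls with GC content removed or without sham replicate 1 are given below. Counts of called list members are to be read against the 25.3% of all genes that were higher and the 8.79% that were lower. List members under 1 CPM in both sham libraries passed the filter through other libraries, which favours a difference.

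**Figure D1:**
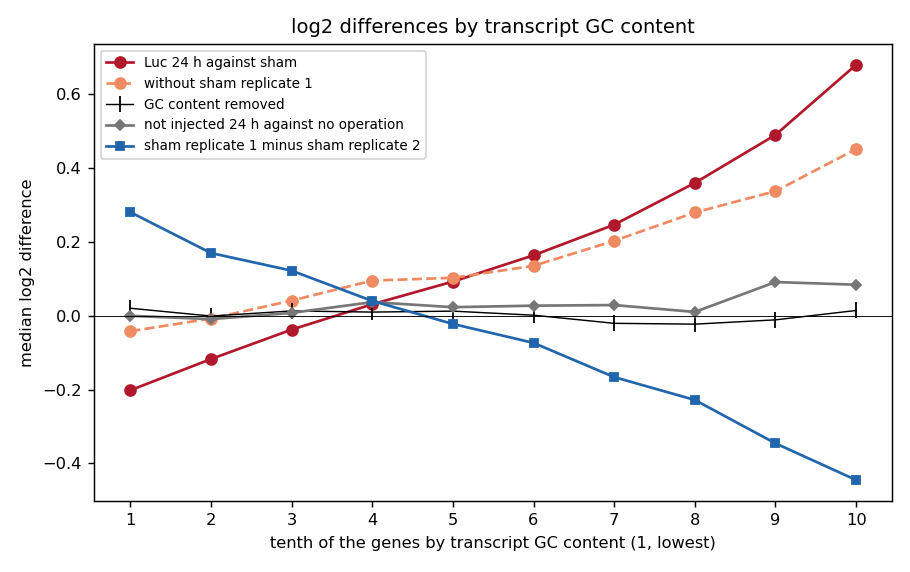
Median log2 difference (vertical axis) in each of 10 bins of the tested genes ordered by transcript GC content (horizontal axis, 1 is lowest). The red line, Luc 24 h against sham, climbs from -0.20 to 0.68. It climbs less without sham replicate 1 and is flat once GC content is removed, and the uninjected 24 h comparison of the other table stays between -0.0094 and 0.091.

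Among called genes that averaged 10 CPM or more in the 5 libraries and did not overlap between the groups, the 10 largest increases were Lcn2, Cxcl10, Saa3, Serpina3n, Oasl1, Ifit1, Rsad2, Ifit3, Ptx3 and Ifit3b. They are acute-phase genes (Lcn2, Saa3, Serpina3n, Ptx3) and interferon targets (Cxcl10, Oasl1, Ifit1, Rsad2, Ifit3, Ifit3b). Lcn2 (mm10 chr2:32384637-32387740), which encodes a protein that binds bacterial iron carriers, had 1069.8, 227 and 286 CPM in Luc replicates A, C and D against 2.84 and 2.57 CPM in the sham libraries. Its log2 fold change was 6.80 ± 0.60 (SE, adjusted p = 8.8e-08). Serpina3n (chr12:104406708-104414330), an inhibitor of neutrophil proteases, had 1143, 588 and 927 CPM against 5.84 and 18.5 CPM (6.21 ± 0.78, adjusted p = 5.4e-06). The separation of the groups was part of the rule that chose these genes. Saa3 (chr7:46711998-46715677), an acute-phase apolipoprotein, had 263, 30.8 and 60.0 CPM against 0.0326 and 0.127 CPM, so its sham values rested on a few reads each and its log2 fold change of 6.21 is set by the added 1. Ptx3, a soluble pattern recognition protein, rose from 2.44 and 2.76 CPM to 371, 169 and 111 CPM (5.74 ± 0.75). All 10 remained past the threshold in every alternative computed, including those without sham replicate 1 and with GC content removed.

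**Figure D2:**
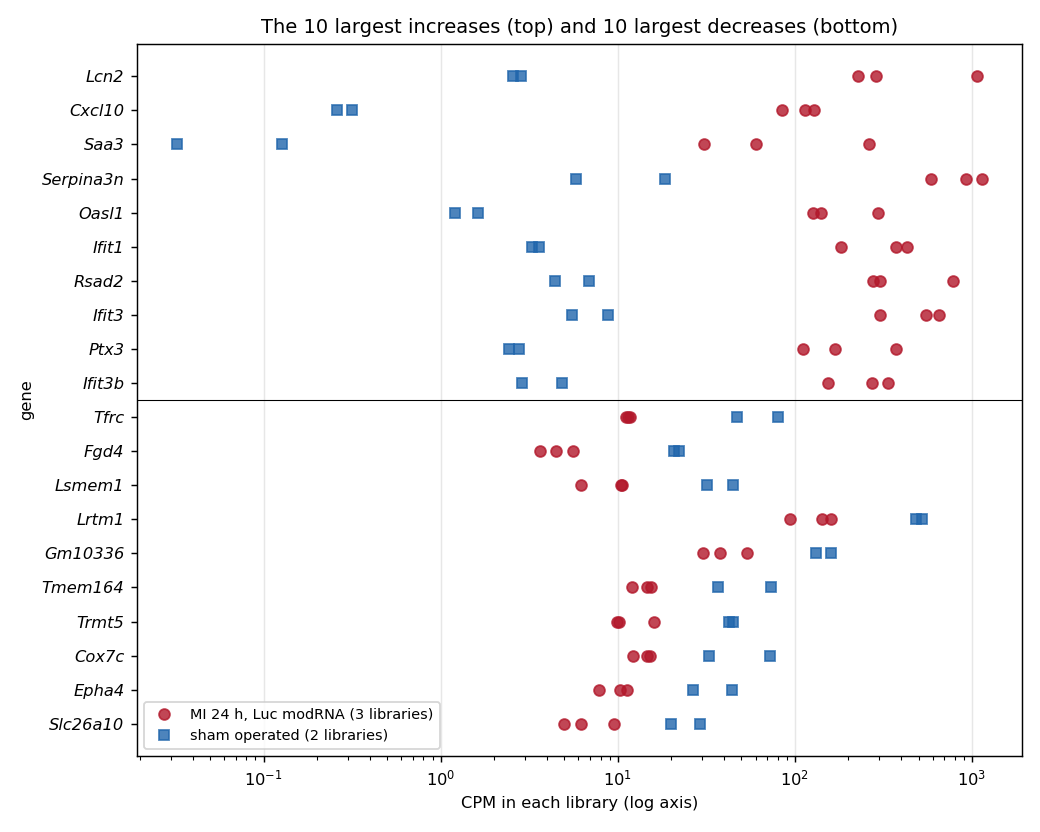
CPM in each library (horizontal log axis) for the 10 genes with the largest increases and the 10 with the largest decreases, among called genes with an average of 10 CPM or more over the 5 libraries and no overlap between the groups. Red circles are the 3 Luc 24 h libraries and blue squares the 2 sham libraries. The groups lie farther apart for the increases than for the decreases.

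Interferon-stimulated genes were higher throughout the list. All 24 members of the list were tested and all 24 were higher (median log2 fold change 4.11, between 1.54 and 6.19), where 25.3% of all genes were. The count was 24 with GC content removed and 23 without sham replicate 1. Ifit1 (chr19:34640889-34650010), whose protein binds RNA that lacks the cap methylation of host mRNA, had 432, 372 and 182 CPM in Luc replicates A, C and D against 3.58 and 3.26 CPM (6.13 ± 0.61, adjusted p = 3.5e-07). Rsad2 (chr12:26442743-26456453), which encodes the antiviral enzyme viperin, had 276, 785 and 303 CPM against 6.88 and 4.44 CPM (5.95 ± 0.84, adjusted p = 2e-05). Oasl1, a relative of the oligoadenylate synthetases, had 127, 296 and 140.1 CPM against 1.21 and 1.62 CPM. Ifit2 had 553, 883 and 351 CPM against 11.6 and 9.58 CPM. For Ifit1, Rsad2 and Oasl1 the separation of the groups was part of the rule that chose them. Of the 24 list members, 2 were under 1 CPM in both sham libraries and passed the filter through other libraries. Among the 24 genes, 16 were highest in replicate C and 8 in replicate A. Ifit3 and Ifit3b are near-identical copies whose reads the counting may have split, so their separate values of 5.91 and 5.67 are uncertain, although both rose.

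The interferon-stimulated response element that binds the factor ISGF3 and the interferon regulatory factors has as its core a repeated GAAA. The letters GAAANNGAAA were searched on both strands of the RefSeq promoters of build GRCm38.p6, from 250 bases before to 50 bases after each start site. Of the 10 largest increases 6 held the motif, and the following windows show it in 5 of them, since the windows of Ifit3b have the same letters as those of Ifit3. Capitals mark the motif, each window is written 5′ to 3′ on the strand named, and the distance is from the motif to the start site.
Ifit1, chr19:34640796-34640821, minus strand, 76 to 85 bases upstream: agcagtgaGAAACTGAAActgagact
Ifit1, chr19:34640777-34640802, minus strand, 95 to 104 bases upstream: tgagactgGAAAGTGAAActgaagcc
Ifit3, chr19:34583399-34583424, minus strand, 113 to 122 bases upstream: ggaaagtaGAAACTGAAAcagactta
Ifit3, chr19:34583365-34583390, minus strand, 147 to 156 bases upstream: cagaagagGAAAGTGAAActtaccac
Rsad2, chr12:26456555-26456580, plus strand, 111 to 120 bases upstream: tgttttctGAAAATGAAAgttggacc
Cxcl10, chr5:92349085-92349110, minus strand, 204 to 213 bases upstream: acgctttgGAAAGTGAAActtacctc
Saa3, chr7:46715784-46715809, minus strand, 116 to 125 bases upstream: tatcttctGAAAGAGAAAttatgggt

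Promoters were given for 18 of the 24 interferon-stimulated genes, and 10 of them (55.6%) held GAAANNGAAA, against 1079 of all 27025 genes with a promoter (3.99%) and 377 of the 9737 among the tested genes (3.87%). The share was 5.79% among genes called higher and 2.58% among genes called lower. Overlapping matches in a promoter were counted as 1 gene. A match describes the letters and does not show a bound site, and Ifit2 and Oasl1, which rose as strongly, had no match in these windows.

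Sensors of foreign RNA and DNA were the next list of the interferon response. Of 17 members tested, 11 were higher and 1 lower (median 1.71), against 25.3% and 8.79% of all genes. The higher count was 9, and the call of the lower gene ended, without sham replicate 1. Ddx58, which encodes the sensor RIG-I of short and uncapped double-stranded RNA, had 186, 220.4 and 115 CPM against 8.70 and 11.6 CPM (3.93 ± 0.41, adjusted p = 6.7e-07). Dhx58, its regulator LGP2, had 37.6, 77.5 and 41.4 CPM against 1.56 and 2.09 CPM (4.16 ± 0.44). Zbp1, a sensor of Z-form nucleic acid, had 33.6, 25.1 and 15.5 CPM against 0.521 and 0.476 CPM, and Adar, which edits adenosines in double-stranded RNA, rose by 2.44 ± 0.34. The immunoproteasome, the interferon-inducible form of the proteasome, was among the genes of the proteasome that rose: Psmb8 had 79.8, 99.8 and 84.0 CPM against 11.4 and 8.66 CPM (3.02 ± 0.28), and Psmb10 rose by 2.19 ± 0.30. Over the 47 proteasome subunits tested, 13 were higher, near the 25.3% of all genes, and 1 was lower. With GC content removed 9 were higher, and fewer calls remained when either sham replicate was left out. The median was 0.37, with 0.56 without sham replicate 1 and 0.19 without sham replicate 2.

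The levels of 7 genes across the table place the 24 h libraries between other times. Of these, S100a9 and Nppa were chosen after their values were seen. The Luc libraries of 4 h, 24 h and 48 h are different mice. Ifit1 had 47.3 to 91.0 CPM in the 4 libraries of 4 h (median 68.0) and 15.5 to 68.1 CPM in the 4 libraries of 48 h (median 27.8), so that the 3 libraries of 24 h lay above both. Cxcl10, a chemokine for T cells and natural killer cells, had 35.8 to 76.6 CPM at 4 h, 85.0 to 128 CPM at 24 h and 0.968 to 7.66 CPM at 48 h. Lcn2 had 9.17 to 18.9 CPM at 4 h and 65.8 to 270.4 CPM at 48 h, and the 24 h libraries (227 to 1069.8 CPM) overlapped those of 48 h. In the 3 libraries of the other modRNA of the series, labelled AC, Ifit1 had 84.0 to 250 CPM at 24 h and Cxcl10 had 10.0 to 120.2 CPM, ranges that overlap those of the Luc 24 h libraries. Comparisons of these groups with the sham libraries share those libraries, so the levels are given here without a test.

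**Figure D3:**
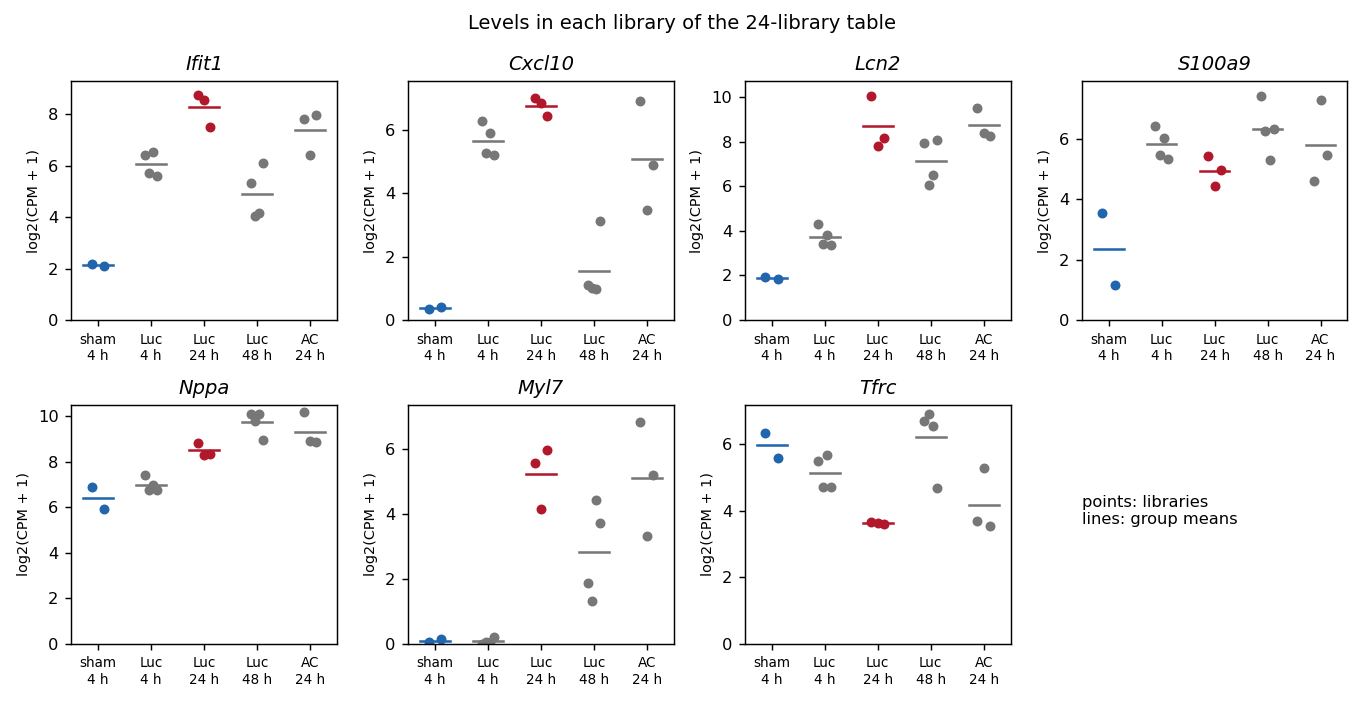
log2(CPM + 1) of 7 genes (vertical axes) in each library of the sham group, the Luc groups of 4, 24 and 48 h, and the AC group of 24 h. Points are libraries and lines are group means. The group means of Ifit1 and Cxcl10 are highest and that of Tfrc is lowest in the Luc libraries of 24 h. Single AC libraries reach the same levels of Ifit1, Cxcl10 and Tfrc. Myl7 is near 0 in the sham and 4 h libraries and between 17.0 and 61.3 CPM in the Luc libraries of 24 h.

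Many genes of chemokines, cytokines and NF-kB feedback were higher, where 25.3% of all genes were. Of 15 CXC chemokine genes tested, 10 were higher (median 2.82), and of 16 CC chemokine and receptor genes 9 were higher. All 15 members of the NF-kB list, 11 of 14 of the IL-1 family and inflammasome and 12 of 15 of the IL-6 family were higher, with medians of 2.00, 1.99 and 1.62. Without sham replicate 1 these counts were 9, 8, 7, 10 and 9. In the IL-6 family 1 gene was lower, the receptor gene Lifr (-0.69 ± 0.24, adjusted p = 0.031), named after its values were seen, and its call ended without sham replicate 1 (adjusted p = 0.12). Of the 15 CXC genes 8 were under 1 CPM in both sham libraries. So were 3 of 16 CC, 3 of 15 NF-kB, 5 of 14 IL-1 and 2 of 15 IL-6 genes. These genes passed the filter through other libraries, which favours a difference. Cxcl1, which draws neutrophils, had 675, 86.6 and 83.0 CPM against 3.91 and 4.79 CPM (5.0 ± 0.91, adjusted p = 0.00027). Ccl2, which draws monocytes, had 282, 64.2 and 56.8 CPM against 2.70 and 2.35 CPM (4.86 ± 0.54). Il6 had 128, 34.5 and 24.0 CPM against 2.67 and 3.11 CPM, and Socs3, the inhibitor that IL-6 signals induce, had 231, 104 and 107 CPM against 8.64 and 17.9 CPM. Replicate A was the highest of the Luc libraries for these genes and for most others of the kind: it was highest for all 10 CXC chemokine genes that rose, for 14 of the 15 NF-kB genes and for 10 of the 12 genes of the IL-6 family. Without replicate A the values of C and D still lay above both sham libraries for Cxcl1, Ccl2, Il6 and Socs3. Absence of overlap was common: with all 5 libraries, 7024 of the 12555 genes tested did not overlap between the groups. Tnfaip3, which encodes the NF-kB inhibitor A20, had 257, 54.0 and 57.4 CPM against 2.90 and 5.01 CPM, and Nfkbia, which encodes the inhibitor IκBα, rose by 2.20 ± 0.54, a call that ended without sham replicate 1 (adjusted p = 0.053).

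Immediate early genes, the transcription factors that cells switch on without new protein synthesis, were higher in 15 of 18 cases (median 1.92, against 25.3% of all genes), and in 11 of 18 both with GC content removed and without sham replicate 1. Of the 18 genes, 4 were under 1 CPM in both sham libraries and passed the filter through other libraries. Junb had 122, 44.6 and 68.1 CPM against 1.11 and 4.66 CPM (4.4 ± 0.48). Egr1 had 314, 139 and 164 CPM against 9.16 and 23.4 CPM (3.62 ± 0.64). Endothelial adhesion genes, which hold leukocytes at the vessel wall, included Icam1 (655, 141 and 132 CPM against 14.3 and 15.2 CPM) and P-selectin, Selp, which rose by 3.58 ± 0.77. Of 8 tested, 5 were higher, 3 of them without sham replicate 1, and 1 was lower, Cd34 with -0.64, a call that ended without Luc replicate A or sham replicate 1. The E-selectin gene Sele rose by 3.16 ± 0.84, a call that ended without sham replicate 1 (adjusted p = 0.075).

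Transcripts that mark neutrophils were higher in 14 of 15 cases (median 2.12), in 11 without sham replicate 1 and in 7 without sham replicate 2. Of the 15, 9 were under 1 CPM in both sham libraries and passed the filter through other libraries, so the count gives no support beyond the single values. In bulk tissue more cells of a type and more RNA per cell cannot be told apart. The summed level of the list was 1315, 383 and 418 CPM in Luc replicates A, C and D and 28.3 and 8.77 CPM in the sham libraries, and Lcn2, which other cells of injured tissue also make, was most of the Luc sums. S100a9, an abundant calcium-binding protein of neutrophils chosen here after its values were seen, had 42.2, 20.7 and 30.4 CPM against 10.7 and 1.24 CPM (2.59 ± 0.68, adjusted p = 0.0056). The defining surface marker Ly6g was between 0.110 and 0.328 CPM in the Luc libraries and at 0.0652 CPM and 0 in the sham libraries. Of 17 genes of recruited monocytes and macrophages 9 were higher (7 of the 17 under 1 CPM in both sham libraries, median 1.41, summed level 239 to 389 CPM against 171 and 110.4 CPM). Plac8 rose from 0.652 and 0.0635 CPM to 19.4, 13.9 and 10.7 CPM (3.52 ± 0.26). Lyz2, the lysozyme of the myeloid lineage, had 40.8, 47.8 and 72.0 CPM against 129 and 66.3 CPM and was not called (-0.82 ± 0.33, adjusted p = 0.059).

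Genes of resident cardiac macrophages had 1 of 11 members higher and 3 lower, against 25.3% and 8.79% of all genes, and 1 was lower and no other call remained without sham replicate 1. Cx3cr1, the fractalkine receptor, had 0.292, 0.292 and 0.235 CPM against 2.87 and 2.54 CPM (-1.54 ± 0.37, adjusted p = 0.0028). Lymphocyte genes were low throughout: 12 of 14 were under 1 CPM in all 5 libraries, and the single gene tested, Cd3e, had 2.52, 6.79 and 2.78 CPM against 0.456 and 0.476 CPM (adjusted p = 0.034, a call that ended without Luc replicate C or either sham replicate). The MHC class II genes of antigen-presenting cells summed to 173 to 292 CPM in the Luc libraries against 249 and 263 CPM. The summed globin and erythroid level was 992 CPM in sham replicate 1 and 274 CPM in replicate 2, against 577 to 1385 CPM in the Luc libraries, so the sham libraries differed from each other by more than the groups did.

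Fetal and wall stress genes of the cardiomyocyte were higher in 11 of 12 cases (median 1.97, against 25.3% of all genes), 10 with GC content removed and 7 without sham replicate 1. Skeletal α-actin Acta1 had 666, 404 and 814 CPM in Luc replicates A, C and D against 116 and 45.9 CPM (3.03 ± 0.42, adjusted p = 1.7e-05). Ankrd2, a stretch-responsive partner of titin, had 56.6, 34.6 and 81.7 CPM against 0.358 and 0.190 CPM (5.44 ± 0.57), and its relative Ankrd1 rose by 1.68 ± 0.23. Nppa, the atrial natriuretic peptide, chosen here after its values were seen, had 460.2, 316 and 324 CPM against 116 and 59.2 CPM (2.11 ± 0.43). The β-myosin heavy chain Myh7, the fetal counterpart of Myh6, had 1804, 1709 and 2483 CPM against 514 and 1005 CPM (1.45 ± 0.29, adjusted p = 0.0007), a call that ended without sham replicate 1 (adjusted p = 0.061).

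The 5 tested genes of the atrial muscle list were called higher, 4 of them without sham replicate 1, and 2 of the 5 were under 1 CPM in both sham libraries and passed the filter through other libraries. Myl7, the atrial regulatory light chain, had 46.2, 17.0 and 61.3 CPM against 0.0326 and 0.0952 CPM, sham values of a few reads. Myl4, the atrial essential light chain, had 82.1, 25.0 and 111 CPM against 0.848 and 1.4 CPM (4.89 ± 0.85, adjusted p = 0.00018), and the calcium pump inhibitor Sln had 14.3, 3.54 and 18.2 CPM against 0.0652 CPM and 0. The summed level of the list was 97.2 to 266 CPM in the Luc libraries and 18.2 and 28 CPM in the sham libraries. Replicate C was the lowest Luc library for Myl7, Myl4 and Sln, and the highest for Tbx5, a transcription factor of atrium and LV (0.92 on the log2 scale). Myl7 had 0 to 0.147 CPM in the Luc libraries of 4 h, 1.49 to 20.6 CPM in those of 48 h and 9.05 to 112 CPM in the AC libraries of 24 h. Nppa is also abundant in atrial muscle. The part of atrial tissue in its values was not tested.

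Of 22 sarcomere genes, 5 were higher (median 0.40), near the 25.3% of all genes. With median-ratio rescaling 1 was higher, the count with GC content removed was also 1, and all 5 calls ended without sham replicate 1. Myh6 itself had a log2 fold change of 0.84 ± 0.28 (adjusted p = 0.023, and 0.37 with GC content removed), a call that also ended with rescaling and without Luc replicate A, Luc replicate D or sham replicate 1. Of 23 genes of calcium handling and ion channels 8 were lower, where 8.79% of all genes were, and 2 were higher (median -0.19). With GC content removed 12 were lower (median -0.59), without sham replicate 1 it was 4, and both higher calls ended in either case. Phospholamban, Pln, had 2952, 3135 and 3280.3 CPM against 6215 and 4680.1 CPM (-0.79 ± 0.19, adjusted p = 0.0027, and 0.093 without sham replicate 1). The inward rectifier channel gene Kcnj2 had 17.3, 14.6 and 8.86 CPM against 32.0 and 46.0 CPM (-1.48 ± 0.30) and Kcnj3 had 18.5, 17.4 and 17.1 CPM against 54.2 and 53.1 CPM (-1.55 ± 0.37). The calcium pump gene Atp2a2 had 10451, 9766 and 10213 CPM against 9801 and 12427 CPM and was not called (-0.12 ± 0.18, adjusted p = 0.63).

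Energy metabolism depends on fatty acids and the mitochondria in the adult heart. With the deposited scaling its genes held few calls, against the 25.3% and 8.79% of all genes. Of 25 genes of fatty acid uptake and oxidation 4 were higher and 1 lower, of 21 TCA cycle genes 1 was higher and 1 lower, of 19 genes of branched-chain amino acid catabolism 1 was higher and 2 lower, and of 81 nuclear genes of the respiratory chain 12 were higher and 1 lower. Replicate D was the highest Luc library for all 12 of these, and without it 7 were higher. The calls of the TCA cycle genes ended without any one of the Luc libraries or sham replicate 1 and with GC content removed. Without sham replicate 1 the fatty acid calls and the lower calls of branched-chain catabolism ended and 4 respiratory chain genes were higher, and with GC content removed the latter count was 3. The medians were 0.15, 0.05, -0.08 and 0.14, close to the 0.16 of all genes, and each had another sign under at least 1 of the alternative scalings, the GC removal or a left-out library. The counts of lower genes also depended on the scaling. With equal totals, where 2479 of all genes were lower, they were 7, 11, 7 and 12 in the same order. The higher counts were then 0, 0, 1 and 8. The lipoprotein lipase gene Lpl had 4801, 3812 and 4666 CPM against 4318 and 3976 CPM (0.09 ± 0.20). Ogdh, a rate-setting enzyme of the TCA cycle, had 2237, 2302 and 2595 CPM against 1764 and 2386 CPM (0.21 ± 0.16), and neither gene was called. Ppara, the receptor that drives the genes of fatty acid oxidation, had 97.6, 102 and 83.7 CPM against 41.3 and 62.4 CPM (0.88 ± 0.20, adjusted p = 0.0018, and 0.097 without sham replicate 1). Glycolysis and lactate genes were higher in 11 of 24 cases, but in 4 with GC content removed and in 1 without sham replicate 1, and the call of the regulator Pfkfb3 (2.62 ± 0.69) was among those that ended without that library (adjusted p = 0.069).

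Of 20 matrix proteases and protease inhibitors 14 were higher (median 1.61, against 25.3% of all genes), the same count with GC content removed, and 10 without sham replicate 1. Of the 20 genes, 4 were under 1 CPM in both sham libraries and passed the filter through other libraries. The list joins both kinds, and its largest increase was the inhibitor Serpina3n. The aggrecanase Adamts4 had 180.2, 29.9 and 30.8 CPM against 2.05 and 3.36 CPM (3.95 ± 0.60). Timp3, an inhibitor of metalloproteinases bound to the matrix, had 835, 878 and 911 CPM against 242 and 246 CPM (1.84 ± 0.36). Of 18 collagen and collagen-processing genes 4 were higher, near the 25.3% of all genes, and 1 was lower. Their median was 0.38, and 0.03 with GC content removed. Without Luc replicate A 7 were higher. Basement membrane collagen Col4a1 had 1017, 873 and 1077 CPM against 169 and 283 CPM (2.17 ± 0.30), and Lox, which crosslinks collagen, rose by 3.04 ± 0.32. Among 15 genes of resting fibroblasts 5 were higher (3 without sham replicate 1) and 2 lower. Gelsolin, Gsn, which severs actin filaments, had 1476, 1614 and 2239 CPM against 653 and 805 CPM (1.27 ± 0.24, adjusted p = 0.00035), and the matrix proteoglycan gene Dcn rose by 0.77 ± 0.17. Robo4, a guidance receptor of endothelium, had 123, 102 and 97.6 CPM against 27.0 and 41.7 CPM (1.64 ± 0.24). It was among 4 of 12 endothelial genes that were higher, against 25.3% of all genes, and 1 was lower. The endothelial median was 0.55, and 0.17 with GC content removed, where 2 were higher. Fewer of the higher calls remained without sham replicate 1 (median 0.38). Of 15 vessel growth factor genes 2 were higher and 2 lower (median 0.18), against 25.3% and 8.79% of all genes. With GC content removed 1 was higher and 4 were lower. The largest increase of this list was that of Pgf (3.14 ± 0.55).

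Stress genes were higher in several lists. The metallothioneins, small proteins that bind zinc and copper, had some of the larger values: Mt2 had 733, 676 and 906 CPM against 15.3 and 17.8 CPM (5.45 ± 0.61, adjusted p = 1.2e-06) and Mt1 had 883, 744 and 1062 CPM against 44.0 and 53.9 CPM (4.16 ± 0.45). Of 18 genes of oxidative stress and metal binding 11 were higher, of 18 of the integrated stress response 13, of 16 heat shock chaperones 6 (and 1 lower), and of 20 of cell death 12, against 25.3% of all genes. Without sham replicate 1 the first of these counts was 7 and the third 3, and with GC content removed the integrated stress response had 8. Atf4, the transcription factor at the centre of the integrated stress response, had 239, 179 and 150.1 CPM against 66.8 and 57.6 CPM (1.57 ± 0.26). Hmox1, the inducible heme oxygenase, had 209, 130.1 and 111 CPM against 10.2 and 13.3 CPM (3.53 ± 0.46). Cdkn1a, the p21 inhibitor of the cell cycle, had 496, 588 and 581 CPM against 54.7 and 79.0 CPM, and was one of 2 cell cycle genes of 27 that were higher. Hspa1a had 36.3, 6.67 and 8.6 CPM against 0.544 and 1.14 CPM. It shares nearly all of its coding sequence with Hspa1b, so that its value is uncertain, and its call ended without sham replicate 1 (adjusted p = 0.059).

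Sphingolipid enzymes, which make and break down ceramide and sphingosine and which the title of the series names, had 11 of 26 tested members higher and 1 lower (median 0.48, against 25.3% and 8.79% of all genes), with 7 higher once GC content was removed, 5 without sham replicate 1 and 6 without sham replicate 2 or Luc replicate A. Sphk1, the kinase that makes sphingosine 1-phosphate, had 64.2, 44.0 and 46.6 CPM against 2.38 and 3.78 CPM (3.69 ± 0.59, adjusted p = 7.1e-05). The acid sphingomyelinase gene Smpd1 had 205, 177 and 209 CPM against 141 and 149.6 CPM and was not called (0.43 ± 0.18, adjusted p = 0.065). Cytosolic ribosomal protein genes were higher in 21 of 82 cases, close to the share of all genes, with a median of 0.46. The count was 11 with GC content removed, 10 without sham replicate 2 and 13 without Luc replicate D, which was highest for 20 of the 21. Rplp1 had 152, 147 and 206 CPM against 20.1 and 40.7 CPM (2.50 ± 0.43), whereas Rpl4 had 532, 526 and 647 CPM against 529 and 445 CPM (0.22 ± 0.17).

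The decreases were smaller and more scattered in kind. Within the same limits on level and overlap, the 10 largest were Tfrc, Fgd4, Lsmem1, Lrtm1, Gm10336, Tmem164, Trmt5, Cox7c, Epha4 and Slc26a10, with log2 fold changes between -2.33 and -1.71. Tfrc (chr16:32608896-32632795), the transferrin receptor through which cells take up iron, had 11.7, 11.4 and 11.2 CPM against 80.0 and 46.9 CPM (-2.33 ± 0.52, adjusted p = 0.0016). Without sham replicate 1 its adjusted p was 0.053. It had 25.1 to 49.7 CPM in the Luc libraries of 4 h and 24.9 to 119.6 CPM in those of 48 h, above the 24 h libraries in each case. Lrtm1 (chr14:29018208-29033643), a leucine-rich repeat membrane protein, had 94.1, 143 and 160.3 CPM against 519 and 485 CPM (-1.95 ± 0.24, adjusted p = 3e-06). Fgd4, an activator of the GTPase Cdc42, had 5.58, 4.49 and 3.64 CPM against 22.3 and 20.8 CPM. Epha4, an ephrin receptor, had 11.2, 7.89 and 10.3 CPM against 26.7 and 44.4 CPM. Cox7c, a subunit of cytochrome c oxidase, had 12.2, 15.3 and 14.6 CPM against 72.1 and 33.0 CPM, and the sham libraries differed from each other by more than the Luc libraries did. The calls of Tfrc, Lsmem1, Cox7c and Slc26a10 ended without sham replicate 1, that of Slc26a10 also without sham replicate 2 or Luc replicate C or D, and that of Epha4 without sham replicate 2. Insig1, which holds back sterol synthesis, had 7.55, 7.81 and 7.13 CPM against 18.8 and 17.3 CPM (-1.16 ± 0.21). It was the lowest member of a list without a common direction. Of 15 sterol synthesis genes tested 4 were higher and 2 lower (median -0.20), against 25.3% and 8.79% of all genes. With GC content removed 2 were higher and 5 lower.

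Infarcts of the same age without any injection were measured in separate mice, 4 libraries at 24 h against 3 labelled no operation, in a table of their own that shares no library with the first and was normalized separately. No test was made across the tables, and the groups differ in injection, in the kind of control and in the set of libraries. There, 12487 genes were tested, 35.6% were higher and 30.3% lower. Over the 12259 genes tested in both, the log2 fold changes had a Spearman's rho of 0.49, as a description across genes. Of the genes called higher with Luc modRNA, 61.7% were called higher without injection (44.1% of the latter list), and of those called lower 66.5% were called lower (19.4% of the latter list). Interferon-stimulated genes had a median of 1.80 without injection, with 21 of 24 higher, against 4.11 with Luc modRNA. Ifit1 went from 3.59 to 5.28 CPM without operation to 16.2 to 47.1 CPM in the uninjected infarcts (log2 fold change 2.65). Cxcl10 had a log2 fold change of 2.45 there against 6.4 with Luc modRNA. It had 0.181 to 0.444 CPM without operation and 0.261 and 0.317 CPM in the sham libraries. Both of its log2 fold changes are therefore set by the added 1.

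The order was turned for leukocyte genes. Neutrophil genes had a median of 5.86 in the uninjected infarcts, with 15 of 15 higher, against 2.12 with Luc modRNA, and recruited monocyte and macrophage genes 4.06 against 1.41. S100a9 had 127 to 928 CPM in the uninjected 24 h libraries and 0.363 to 0.47 CPM without operation, a log2 fold change of 8.22 against 2.59 with Luc modRNA. Lcn2 was alike in both comparisons, with 6.78 and 6.80. The metabolic lists had lower medians without injection than with Luc modRNA, where they were close to the median of all genes, and calcium handling and ion channel genes were lower in part in both comparisons: 21 of 23 genes of calcium handling and ion channels were lower (median -1.77 against -0.19), 22 of 25 of fatty acid uptake and oxidation (-0.74 against 0.15), 20 of 21 of the TCA cycle (-0.70 against 0.05) and 18 of 19 of branched-chain amino acid catabolism (-0.90 against -0.08). Atp2a2 fell by 1.90 on the log2 scale without injection, where it had -0.12 with Luc modRNA. Resting fibroblast genes were lower in 13 of 15 cases (median -1.05 against 0.40), and cytosolic ribosomal protein genes were higher in 80 of 82 (median 1.20 against 0.46).

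**Figure D4:**
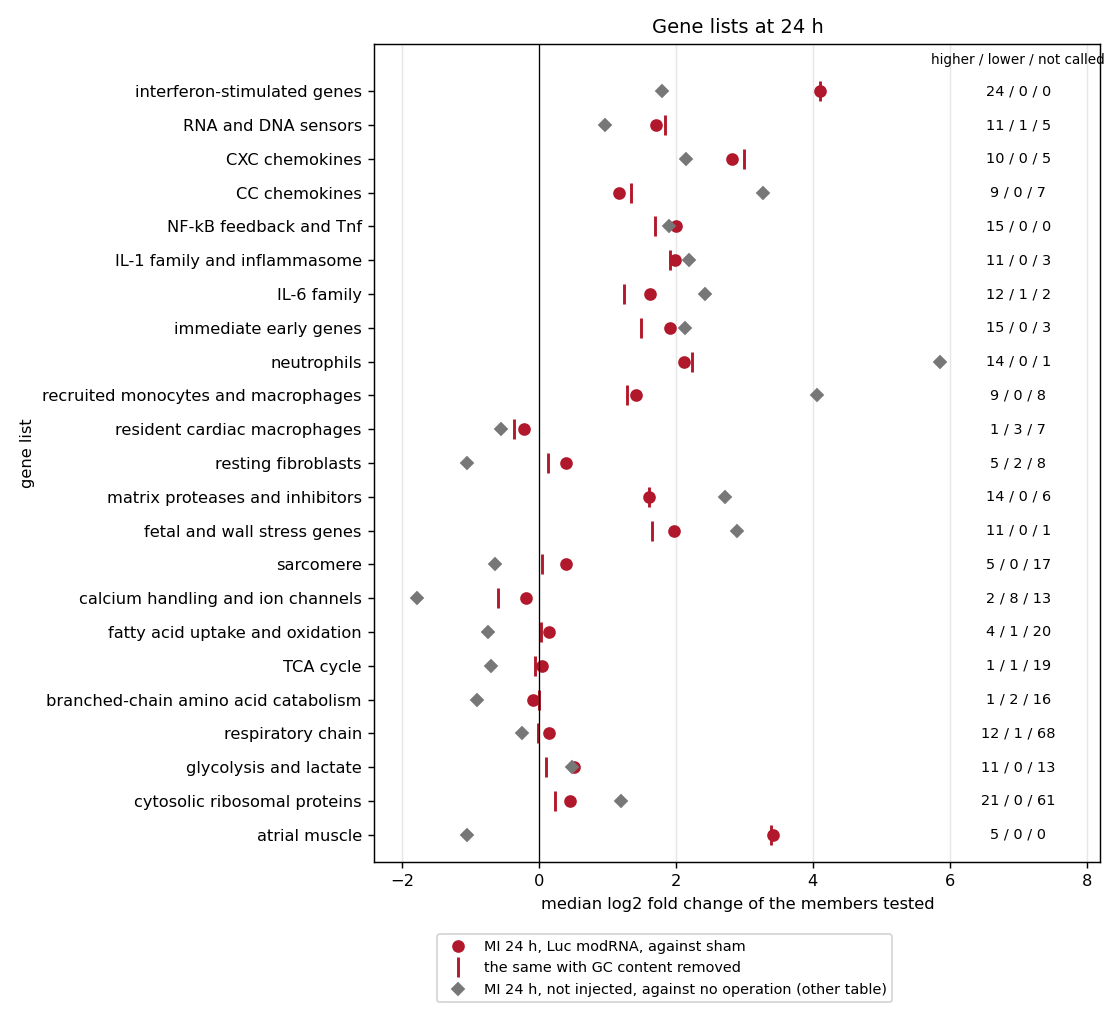
Median log2 fold change of the tested members (horizontal axis) for 23 gene lists (vertical axis), with Luc modRNA against sham (red circles), the same with GC content removed (red bars) and the uninjected 24 h infarcts against no operation in the other table (grey diamonds). The numbers on the right count members higher, lower and not called with Luc modRNA. The interferon-stimulated genes lie at 4.11 against 1.80, and the neutrophil genes at 2.12 against 5.86.

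**Figure D5:**
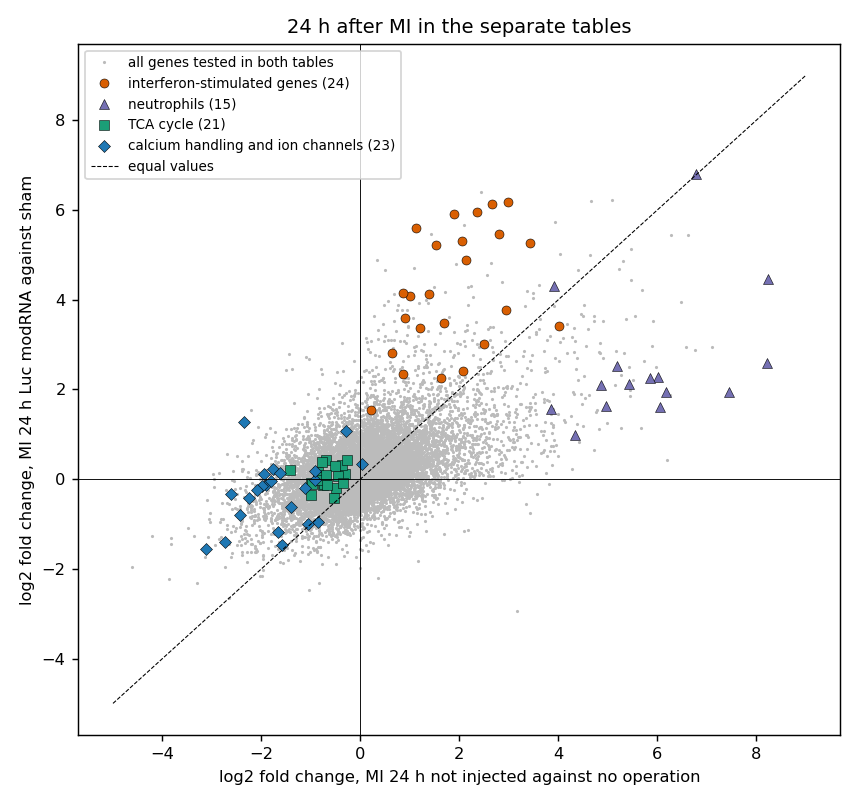
Log2 fold change of each gene tested in both tables, uninjected infarcts against no operation (horizontal axis) and Luc modRNA infarcts against sham (vertical axis). The dashed line marks equal values. Interferon-stimulated genes (orange) lie above it with the exception of 1 gene, most neutrophil genes (purple) lie below it, TCA cycle genes (green) lie left of 0 and near 0 on the vertical axis, and calcium handling and ion channel genes are in blue.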

How the data were processed

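RNA was sequenced from TruSeq stranded mRNA libraries of mouse LV. The authors aligned reads with STAR to mm10, quantified genes with the Partek E/M algorithm and scaled them by TMM, so the deposited values are scaled CPM. These steps are described for the table of 10 libraries and were taken to hold for the table of 24, whose values are CPM + 1, so 1 was subtracted. Between 85.4% and 87.6% of low values in the 5 libraries were whole multiples of 1 read (tolerance 0.05 reads), so reads were not treated as recovered and depth is an estimate.

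Genes that averaged 1 CPM or more were tested on log2(CPM + 1), so changes of low genes are understated, with limma 3.58.1 (R 4.3.3, trend, 7 groups over 24 libraries), adjusted by the Benjamini-Hochberg method with a threshold of 0.05. The table of 10 libraries was tested in the same way on its own. Tables and figures were made with pandas 2.3.3, numpy 2.4.6 and matplotlib 3.10.9, and the code was tested on simulated data. GC content came from the longest GENCODE transcript of each symbol, and promoters from RefSeq (GRCm38.p6).

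Named genes were the 10 largest increases and decreases among called genes averaging 10 CPM or more without overlap of the groups, the most abundant and most changed members of each list, defining markers near 0 and genes whose role sets them beside these. Some genes that the rule names are not reported here. The groups, lists and tests were chosen with earlier results of these data known. Alternatives were other pseudocounts, filters, scalings and weights, the 5 libraries alone, no trend, a test against a fold change of 1.5 and each library left out. Voom on estimated reads and the removal of GC content were added after seeing the data.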

Additional observations from a re-analysis of the deposited data

Results flagged for a closer look

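Among the genes named by rule and reported here, 12 were called in opposite directions with Luc modRNA at 24 h and without injection at 24 h. For each of the 12 the groups did not overlap in either table. Over all genes tested in both tables, 346 of the 3091 called higher with Luc modRNA were called lower without injection. Of the 1096 called lower, 72 were called higher there. These counts over all genes do not ask for absence of overlap, so the 12 are given as single genes and no share is read from them. The 2 comparisons have other controls and separately normalized tables, and the difference was not tested. Higher with Luc modRNA and lower without injection were Myh6 (log2 fold change 0.84 and -1.77), the lipid regulator Ppara (0.88 and -2.16), the fatty acid carrier Fabp3 (0.73 and -0.60), the branched-chain keto acid dehydrogenase subunit Bckdha (1.21 and -0.60), the hypoxia factor Epas1 (0.78 and -1.59), Gas6, a ligand of receptors for dying cells (0.79 and -0.94), Gsn (1.27 and -1.09), Dcn (0.77 and -0.59), Dkk3 (2.67 and -1.05) and Tbx5 (0.92 and -1.05). Lower with Luc modRNA and higher without injection were the clotting factor subunit F13a1 (-1.0 and 1.14) and the prostaglandin synthase Ptges3 (-0.59 and 0.99). With Luc modRNA the calls of Bckdha, Dcn, Dkk3 and Gsn remained without any single library, and those of the other 8 genes ended without sham replicate 1. The calls of Fabp3, Myh6, Epas1 and Gas6 also ended with GC content removed.

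One library of the Luc 48 h group stood far from the other 3 for Cxcl10, at 7.66 CPM where the group's median was 1.08 CPM, a gap of 0.976 of the group's range. The limit used for such gaps is passed by chance in about 1 in 20 groups.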

How the results depend on the processing

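Requiring a mean of at least 10 CPM tested fewer genes and left 2817 calls, 649 of them lower. Median-ratio rescaling gave 2044 lower genes, and equal totals gave 1838 higher and 2479 lower. Testing against a fold change of 1.5 left 809 calls, 749 higher and 60 lower, and 168 of the 399 called members of the gene lists. With GC content removed, 1907 genes were higher. Leaving out 1 library at a time gave between 1682 and 3976 calls, 1345 to 2944 higher and 337 to 1032 lower, and 239 to 383 called list members. The lowest value was without sham replicate 1 in each case, and the cause was not tested. The other pseudocounts, filters and weights, the 5 libraries alone, the fit with no trend and voom gave numbers of called genes, in all and in each direction, within 1.5 times those reported. Counts within short lists moved more: the 5 higher sarcomere genes became 2 with array weights or no filter and 3 with the 5 libraries alone. Of the 146 genes named by rule and called, 100 remained called without sham replicate 1 and 89 against a fold change of 1.5, and none changed direction under any alternative. The uninjected comparison gave 7334 to 8654 calls when 1 library was left out, against 8236.

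No paired analysis was possible because the Luc 24 h replicates (A, C and D) and the sham replicates (1 and 2) share no replicate number. With 2 sham libraries, collected at 4 h, the spread of the sham group rests on a single difference, and values near that of 1 read (0.0317 to 0.0392 CPM) carry counting error beyond it.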

Other observations

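Of 7 fat cell genes 3 passed the filter, 2 of them under 1 CPM in both sham libraries, so no count is read from them. The summed level of the list was 6.32 to 28.7 CPM in the Luc 24 h libraries and 2.57 and 1.81 CPM in the sham libraries. Smooth muscle and pericyte genes summed to 925 to 1106 CPM against 1132 and 1098 CPM. Abundant members weigh most in such a sum, and the median log2 fold change of the 10 genes was 0.66. Of these 10 genes 3 were higher, near the share of all genes, and 1 was lower. With GC content removed the median was 0.27 and 1 was higher. Cathepsins of the lysosome were higher in 5 of 18 cases, near the share of all genes, and in 3 without sham replicate 1. Complement and coagulation genes were higher in 11 of 19 cases (1 lower), where 25.3% of all genes were higher. Ligands of the TGF-beta family were higher in 9 of 14 (median 1.13), against the same share. In these lists 2 of 19 and 3 of 14 genes were under 1 CPM in both sham libraries and passed the filter through other libraries. Mitochondrial ribosomal protein genes had 2 of 77 higher and 3 lower (median 0.07). None of these calls remained without sham replicate 1, 6 genes were lower with GC content removed and 10 without sham replicate 2, and with median-ratio rescaling 13 were lower.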
